A study of Mus musculus with 9 samples.

Results

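The proteasome is the barrel-shaped protease that degrades ubiquitin-tagged proteins, and its constitutive subunits are the ones that every cell type builds into it. The genes described here are those whose symbols match Psma1 to Psma7, Psmb1 to Psmb7, Psmc1 to Psmc6, or Psmd followed by digits. By this rule 34 of the 56691 genes in the deposited table were members. They were 7 alpha ring and 7 beta ring genes of the core particle, 6 ATPase ring genes, 3 non-ATPase genes of the base, 8 lid genes, and 3 genes of assembly chaperones that leave the finished particle. Their RNA was measured by sequencing in primary mouse hepatocytes, liver parenchymal cells kept in culture, in 3 libraries for each of 3 groups. Bobcat339 cultures received an inhibitor of the TET dioxygenases, enzymes that oxidise methylated cytosine in DNA. 4OI cultures received 4-octyl itaconate, a cell-permeable ester of the metabolite itaconate that is known to activate the oxidative stress factor NRF2 through KEAP1. DMSO cultures received the solvent and are the controls. All cultures attached for 4 h and then stood in fresh DMEM for 24 h. No label states genotype, age, dose or length of exposure. Remodelin hydrobromide, an acetyltransferase inhibitor, also appears in the protocol as an optional addition, and which cultures had it is not labelled. The titles of the 3 4OI libraries carry the same hepatocyte number, and separate animals or cultures are not labelled for any group, so that p-values reflect no more than the spread among these libraries, which may be technical.

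In the core particle, stacked rings of alpha subunits gate the entrance and rings of beta subunits hold the protease sites. Psmb5 carries the chymotrypsin-like, Psmb6 the caspase-like and Psmb7 the trypsin-like activity. The regulatory particle caps the barrel, where the base recognises ubiquitin and unfolds the substrate with the Psmc ATPases, and the lid removes the ubiquitin chain through Psmd14. When proteasomes are inhibited, the membrane-bound factor NRF1 (gene Nfe2l1) is processed and raises transcription of nearly all subunit genes together through antioxidant response elements, and NRF2 (gene Nfe2l2) can bind elements of the same kind. Hepatocytes make and degrade large amounts of protein and depend on this turnover.

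Promoter sequences were taken from RefSeq (GRCm38.p6), each with 250 bases before and 50 bases after the gene's start, and 28 of the 34 members matched an entry. No sequence is shown for Psmb1, Psmb2, Psmb7, Psmc3, Psmd3 and Psmd7. The core of the antioxidant response element, searched as TGACNNNGC on both strands, was present in 5 of the 28 (17.9%), against 14.0% of 27025 genes with a window of that length. The 5 windows are shown because NRF1 and NRF2 genes were among those tested below, with the element in capitals (matches on the other strand read as the reverse complement) and up to 15 flanking bases on each side, 5′ to 3′ along the gene.
Psmb5 (chr14:54618019-54618057, minus strand): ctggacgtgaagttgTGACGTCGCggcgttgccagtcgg
Psmb6 (chr11:70525333-70525371, plus strand): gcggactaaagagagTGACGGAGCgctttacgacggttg
Psmc6 (chr14:45329582-45329620, plus strand): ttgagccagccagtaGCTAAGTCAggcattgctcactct
Psmd12 (chr11:107479278-107479304, plus strand): tctGCTGTGTCAcatttgcccccctca
Psmd9 (chr5:123228144-123228182, plus strand): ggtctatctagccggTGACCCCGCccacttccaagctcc
The ETS core CCGGAAG was present in 10 of 28 members (35.7%) against 9.93% of all genes, and CCAAT was present in 11 of 28 (39.3%) against 41.1%. Matches of different motifs overlapped 2 times among the members. None of these 3 motifs was found in the windows of Psmd8, Psmd5 or Psmb4, the members with the largest falls with 4OI. The 120 bases before the start of Psmd8 and Psmd5 are given as the reference for those genes, with no capitals because no motif matched.
Psmd8 (chr7:29180674-29180793, minus strand): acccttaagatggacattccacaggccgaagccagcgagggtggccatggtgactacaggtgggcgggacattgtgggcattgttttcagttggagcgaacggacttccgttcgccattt
Psmd5 (chr2:34870963-34871082, minus strand): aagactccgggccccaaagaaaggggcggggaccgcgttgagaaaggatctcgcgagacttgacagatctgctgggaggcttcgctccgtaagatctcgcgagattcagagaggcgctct
A match of letters is a description of the window and does not show that a factor was bound there.

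Libraries held 81046789 to 81685369 deposited counts with Bobcat339, 70876333 to 83902788 with 4OI and 67434312 to 68247951 with DMSO. About 4 deposited counts were assumed for each read pair. Members held 0.629% to 0.697% of counts with Bobcat339, 0.484% to 0.512% with 4OI and 0.648% to 0.652% with DMSO, and the lowest count of any member in any library was 1766. The labelled cell type was checked with marker lists, and the 4OI libraries held little RNA of hepatocyte markers. The summed level of 8 hepatocyte markers was 27008 to 29218 CPM (counts scaled to library size with TMM factors) with Bobcat339, 1798 to 1981 CPM with 4OI and 29932 to 31003 CPM with DMSO, and 8 of 8 were lower with 4OI than with DMSO. The 8 macrophage and Kupffer cell markers summed to 285 to 321 CPM with Bobcat339, 3932 to 4070 CPM with 4OI and 561 to 630 CPM with DMSO, where 7 of 8 were lower with Bobcat339 and 8 of 8 higher with 4OI. The 6 endothelial markers (86.4 to 105 CPM with Bobcat339, 2793 to 2936 CPM with 4OI, 96.6 to 109.7 CPM with DMSO) and the 6 stellate cell markers (40.6 to 41.9 CPM with Bobcat339, 197 to 211 CPM with 4OI, 40.7 to 44.1 CPM with DMSO) were all higher with 4OI. Of 5 cholangiocyte markers, 4 were lower with 4OI (32.7 to 36.9 CPM, against 104 to 117 CPM with DMSO). The 5 intestinal epithelium markers summed to 9.20 to 97.1 CPM with Bobcat339, 0.490 to 8.73 CPM with 4OI and 104 to 120.5 CPM with DMSO. Bobcat339 replicate 1 stood apart from its group in these and in some cholangiocyte markers, with 57.9, 6.70 and 4.13 CPM of Muc2 and 16.1, 2.10 and 1.87 CPM of Krt19 in Bobcat339 replicates 1, 2 and 3. With Bobcat339 against DMSO, 1 of 8 hepatocyte markers was lower (Hnf4a, log2 fold change -0.92), as were 2 of 6 endothelial markers (Kdr, -0.85, and Stab2, -0.43). Of the 5 cholangiocyte markers 1 was higher (Sox9, 1.18), and of the 6 stellate cell markers 1 was higher and 1 lower. Among all genes tested, 11.6% were higher and 9.06% lower with Bobcat339, and 33.3% were higher and 30.4% lower with 4OI. Of 6 lymphocyte and neutrophil markers, 4 could be tested and 1 was higher with 4OI, under the share of all genes. No tested marker was at 0 in every library. Mitochondrial genes held 2.36% to 3.12% of counts with Bobcat339, 8.37% to 8.98% with 4OI and 4.43% to 5.59% with DMSO. In these bulk libraries, fewer hepatocytes and less RNA of a gene per hepatocyte cannot be told apart, and the part of these marker and mitochondrial differences in the results below was not tested.

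Per kilobase of transcript, the members differed widely in level. In DMSO libraries the lowest were the assembly chaperones Psmd9 and Psmd10 at 11.2 and 22.7 CPM per kb, while the highest core genes were Psmb4 at 222 and Psma7 at 201 CPM per kb. The lid gene Psmd8 stood apart at 575 CPM per kb. It alone made up 13.4% to 14.5% of the summed CPM of the members with Bobcat339, 3.32% to 3.48% with 4OI and 12.1% to 14.1% with DMSO. With 4OI its level was 105 CPM per kb, below Psmb6 (137), Psma7 (137) and Psmb4 (108 CPM per kb) in the same libraries.

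The first comparison sets these genes with Bobcat339 against DMSO, and TET activity was not among the data. With Bobcat339 the proteasome stayed close to its DMSO level: 2 of the 34 members were higher, 0 were lower, and 32 did not pass the test. Among all 18379 genes tested by edgeR's quasi-likelihood test, 11.6% were higher and 9.06% lower at a Benjamini-Hochberg adjusted p under 0.05. Of all calls 56.2% were higher, a share that was 46.1% with RLE scaling, 45.2% with DESeq2 and 50.1% with library size scaling. At an unadjusted p under 0.05, 4 members passed, and DESeq2 called 1 higher and 0 lower. The shares of all genes at that unadjusted p, or higher with DESeq2, are not given here. These counts therefore have no like background. The median log2 fold change of the members was 0.04 (all genes -0.01). With RLE scaling or DESeq2 it was -0.026 (all genes -0.078), so that the members lay slightly above all genes in each of these settings. Single members ran between -0.16 for the beta subunit Psmb3 and 0.39 for the ATPase Psmc6. For 32 of the 34 the 95% interval of the change lay within 1.5-fold in either direction. The exceptions were Psmc6 and Psmd9.

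Psmd7, the lid subunit that pairs with the deubiquitinase Psmd14, had 241, 241 and 245 CPM in Bobcat339 libraries and 199, 191 and 187 CPM in 4OI libraries, against 206, 215 and 201 CPM in DMSO libraries. The Bobcat339 libraries all lay above the other 6, with a log2 fold change 0.22, SE 0.0633, adjusted p = 0.0295 against DMSO. Psmd9, a chaperone of ATPase ring assembly, had 43.1, 39.5 and 32.3 CPM in Bobcat339 libraries and 30.1, 32.4 and 27.9 CPM in 4OI libraries, against 30.5, 30.6 and 26.5 CPM in DMSO libraries. Bobcat339 libraries again lay above every DMSO library, the third only just (log2 fold change 0.39, SE 0.12, adjusted p = 0.0428). Neither call was firm. Both were lost with RLE scaling (adjusted p = 0.126 for Psmd7 and 0.0982 for Psmd9), and over the 9 libraries left out in turn the count of higher members ran between 0 and 5. The count was 0 without Bobcat339 replicate 2, 4OI replicate 2, DMSO replicate 1 or DMSO replicate 2, and 1 without Bobcat339 replicate 1, Bobcat339 replicate 3, 4OI replicate 1 or 4OI replicate 3. Without DMSO replicate 3 it was 5, namely Psmd7, Psmd11, Psmd12, Psmc6 and Psma3, with Psmd9 no longer among them.

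Libraries of the Bobcat339 group differed among themselves, and replicate 1 was also the one high in intestinal markers. Without it, Psmd7 was the 1 member called higher against DMSO (adjusted p = 0.0445), and the adjusted p of Psmd9 was 0.122. In Bobcat339 replicate 1, 25 of 34 members lay above their group mean (median deviation 0.08 on the log2 scale), and in replicate 3, 25 of 34 lay below it (median -0.12). The deviations went with transcript length across the 34 members, with Spearman's rho of -0.57 in Bobcat339 replicate 1 and 0.54 in replicate 3. In DMSO replicate 1 rho was -0.49. These are correlations across genes of 1 library, which share its depth and RNA quality, and are given as a description. The beta ring has the shortest transcripts (median 899 bases, against 1201 in the alpha ring, 1688 in the ATPase ring and 1742 in the lid). Its summed level was 1289, 1091 and 949 CPM in the 3 Bobcat339 libraries, a wider spread than in the DMSO libraries (1170.2, 1149 and 1057 CPM).

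**Figure D1:**
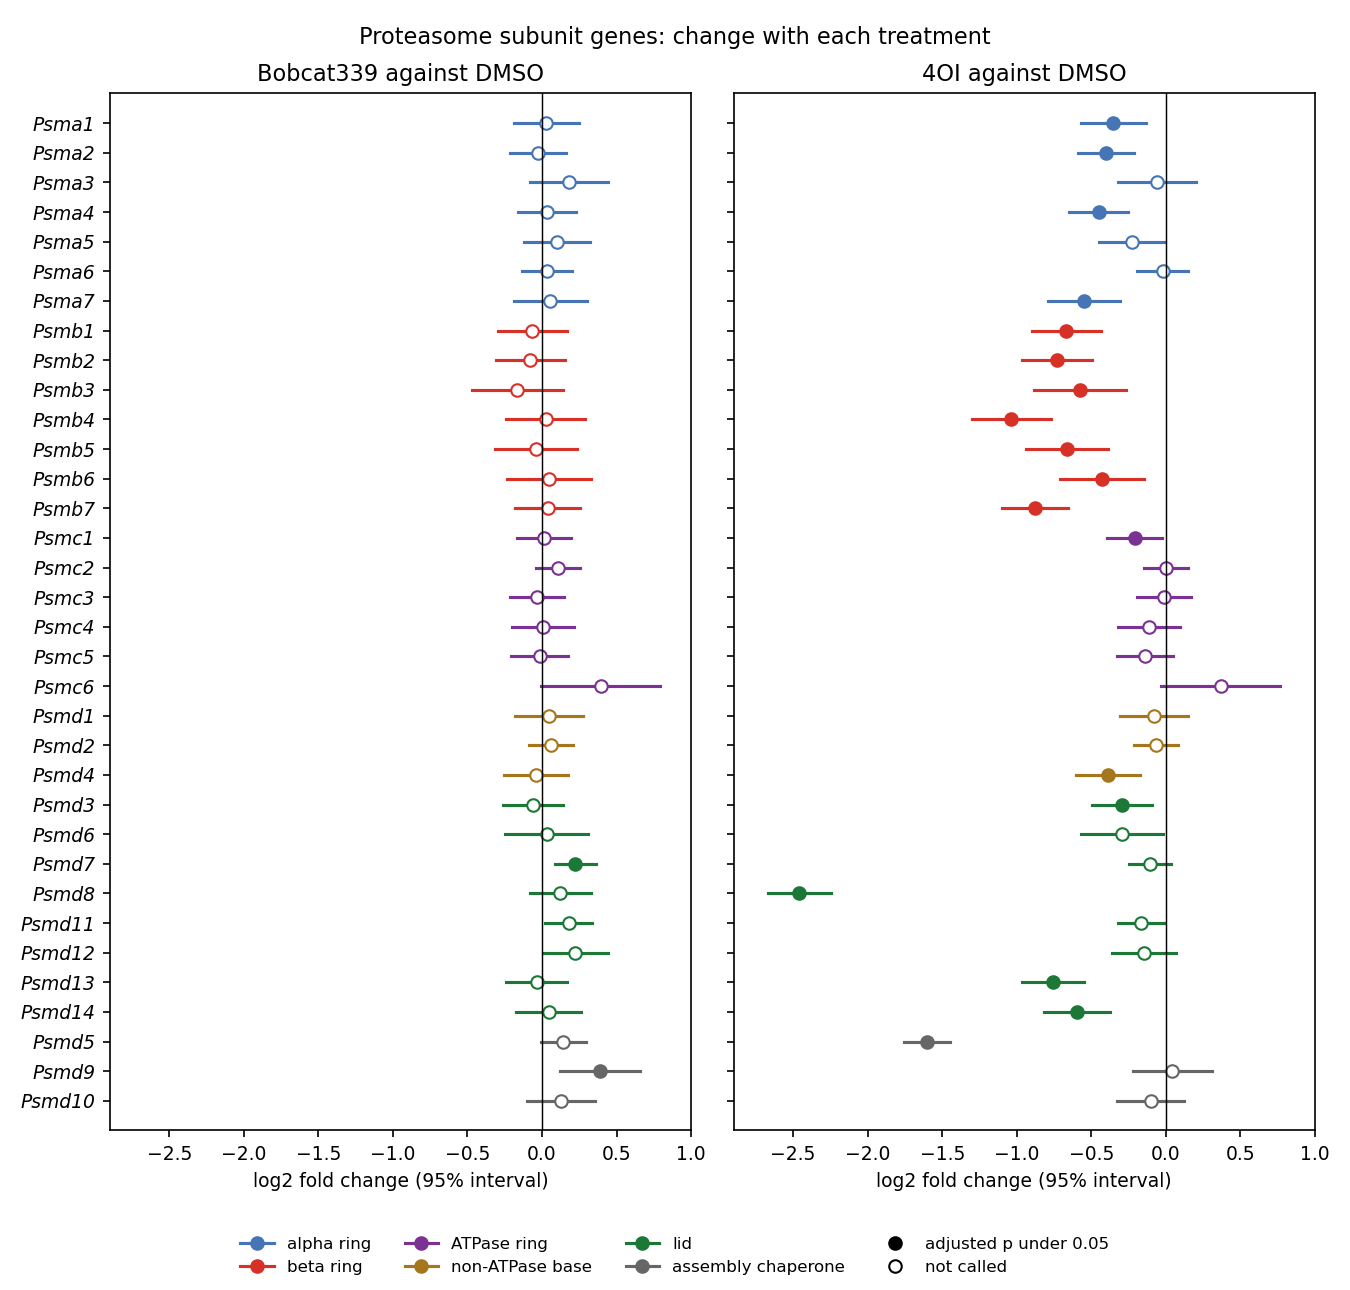
Log2 fold change (x axis) with its 95% interval for each of the 34 members (y axis), coloured by their place in the proteasome, with Bobcat339 against DMSO on the left and 4OI against DMSO on the right. Filled points passed the test: 2 on the left, both higher, and 18 on the right, all lower, among them all 7 beta ring genes and, far to the left, Psmd8 at -2.46 and Psmd5 at -1.60.

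With 4OI, 18 of the 34 members fell (52.9%), 0 rose and 16 did not pass the test, where 30.4% of all genes tested were lower and 33.3% higher. The median change of the members was -0.29 on the log2 scale (all genes 0.08), and without Psmd8 and Psmd5, a choice made after seeing the data, it was -0.26. The fall was uneven across the particle. The test called 7 of 7 beta ring genes, 4 of 7 alpha ring genes, 4 of 8 lid genes, 1 of 6 ATPases, 1 of 3 non-ATPase base genes and 1 of 3 assembly chaperones lower. Of the 18 calls, 15 held in all 17 alternatives, and those of Psmb6, Psmc1 and Psmd3 did not. The summed level of all members was 6873 ± 397 CPM with Bobcat339, 4716 ± 129 CPM with 4OI and 6584 ± 15.9 CPM with DMSO (mean ± SD, n = 3 each). Without Psmd8 and Psmd5 it was 5687 ± 305 CPM with Bobcat339, 4489 ± 122 CPM with 4OI and 5498 ± 63.8 CPM with DMSO, a log2 difference of 4OI against DMSO of -0.29 in place of -0.48. The 4OI and Bobcat339 comparisons share their DMSO libraries. The hepatocyte, macrophage and endothelial marker levels given above moved with the 4OI group, and their part in these falls was not tested.

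The catalytic beta ring fell as a whole. Its median log2 fold change was -0.67, and its 7 genes ran from -1.04 to -0.43. Psmb4, a structural beta subunit, fell most, with 315, 261 and 224 CPM in Bobcat339 libraries and 137, 127 and 120.1 CPM in 4OI libraries, against 278, 268 and 242 CPM in DMSO libraries (log2 fold change -1.04, SE 0.119, adjusted p = 2.03e-05 for 4OI against DMSO). The 4OI libraries lay far below all 6 others. Psmb7, with the trypsin-like site, had 194, 164 and 153 CPM in Bobcat339 libraries and 99.1, 87.6 and 84.3 CPM in 4OI libraries, against 166, 165 and 166 CPM in DMSO libraries (log2 fold change -0.88, SE 0.0989, adjusted p = 1.71e-05). An exon of Psmb7 shares 253 bases with one of Nek6 on the opposite strand, which averaged 10989 counts with Bobcat339, 2128 with 4OI and 9972 with DMSO. Whether the counting used strand is not given in the sources used here, so reads of the 2 genes cannot be told apart there and the value of Psmb7 is uncertain. Psmb5, with the chymotrypsin-like site, had 183, 157 and 128 CPM in Bobcat339 libraries and 109.5, 93.7 and 101 CPM in 4OI libraries, against 171, 160.5 and 149 CPM in DMSO libraries. It fell to 63.2% of its DMSO level (log2 fold change -0.66, SE 0.124, adjusted p = 7.90e-04), with no overlap between 4OI and DMSO libraries. Psmb6, with the caspase-like site, fell least of the catalytic genes. It had 181, 147 and 127 CPM in Bobcat339 libraries and 122, 108 and 97.7 CPM in 4OI libraries, against 153, 149 and 138 CPM in DMSO libraries (log2 fold change -0.43, SE 0.128, adjusted p = 0.0132), and without 4OI replicate 3 its adjusted p was 0.0549. The structural subunits Psmb1, Psmb2 and Psmb3 fell by 0.67, 0.73 and 0.58 on the log2 scale. The copies Psmb6-ps and Psmb7-ps2 averaged at most 14 counts in any group and Psmb5-ps was listed at 0.

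In the alpha ring, which gates the entry to the core, Psma1, Psma2, Psma4 and Psma7 fell by 0.35, 0.40, 0.45 and 0.55 on the log2 scale. Psma6 was at 123 ± 5.17 CPM with 4OI and 125 ± 5.78 CPM with DMSO (SD, n = 3 each), a log2 fold change -0.02, SE 0.0759, adjusted p = 0.821 and a 95% interval from -0.19 to 0.15. Psma3 (-0.06, adjusted p = 0.702) and Psma5 (-0.23, adjusted p = 0.0682) did not pass either. The ratio of summed beta to summed alpha CPM was 1.27, 1.10 and 1.03 in Bobcat339 libraries and 0.914, 0.876 and 0.894 in 4OI libraries, against 1.27, 1.27 and 1.06 in DMSO libraries. All 3 4OI libraries lay below the 6 others. The beta genes also have the shorter transcripts, and across the 34 members the change with 4OI had a Spearman's rho of 0.38 with transcript length. The same rho was 0.39 for Bobcat339 against DMSO, and its part in either result was not tested.

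The ATPase ring, which unfolds substrates and threads them into the core, changed little. Its median was -0.06 (all genes 0.08). With library size scaling the sign turned to 0.03, but the median of all genes moved to 0.17 as well. The ring thus lay below all genes in both settings. The summed level of the ring was 1085, 998 and 1007 CPM in Bobcat339 libraries and 969, 957 and 953 CPM in 4OI libraries, against 965, 966 and 1023 CPM in DMSO libraries, which overlapped. The ATPases Psmc2 and Psmc3 had log2 fold changes of -0.00 (95% interval -0.15 to 0.15) and -0.01 (-0.19 to 0.17). Psmc1 alone was called, with a log2 fold change -0.21, SE 0.0818, adjusted p = 0.0444, and this call was lost with library size scaling (adjusted p = 0.218), with values divided by 4 (adjusted p = 0.0571), and without Bobcat339 replicate 2, DMSO replicate 1, DMSO replicate 3 or any 4OI replicate (adjusted p between 0.0592 and 0.133). Psmc6, singled out after its values were seen, was the member with the highest estimate, at 127, 131 and 179 CPM in Bobcat339 libraries and 139.8, 152 and 137 CPM in 4OI libraries, against 94.6, 92.4 and 145 CPM in DMSO libraries. DMSO replicate 3 lay well above the other controls, and the log2 fold change 0.37, SE 0.18, adjusted p = 0.0966 of 4OI against DMSO did not pass the test. Without that library Psmc6 was higher with 4OI (0.61, adjusted p = 0.00424) and with Bobcat339 (adjusted p = 0.0113). The core particle over the ATPase ring, as a ratio of summed CPM, was 2.12, 2.08 and 1.86 in Bobcat339 libraries and 1.59, 1.49 and 1.39 in 4OI libraries, against 2.17, 2.13 and 2.01 in DMSO libraries, and the 4OI values lay below the 6 others.

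**Figure D2:**
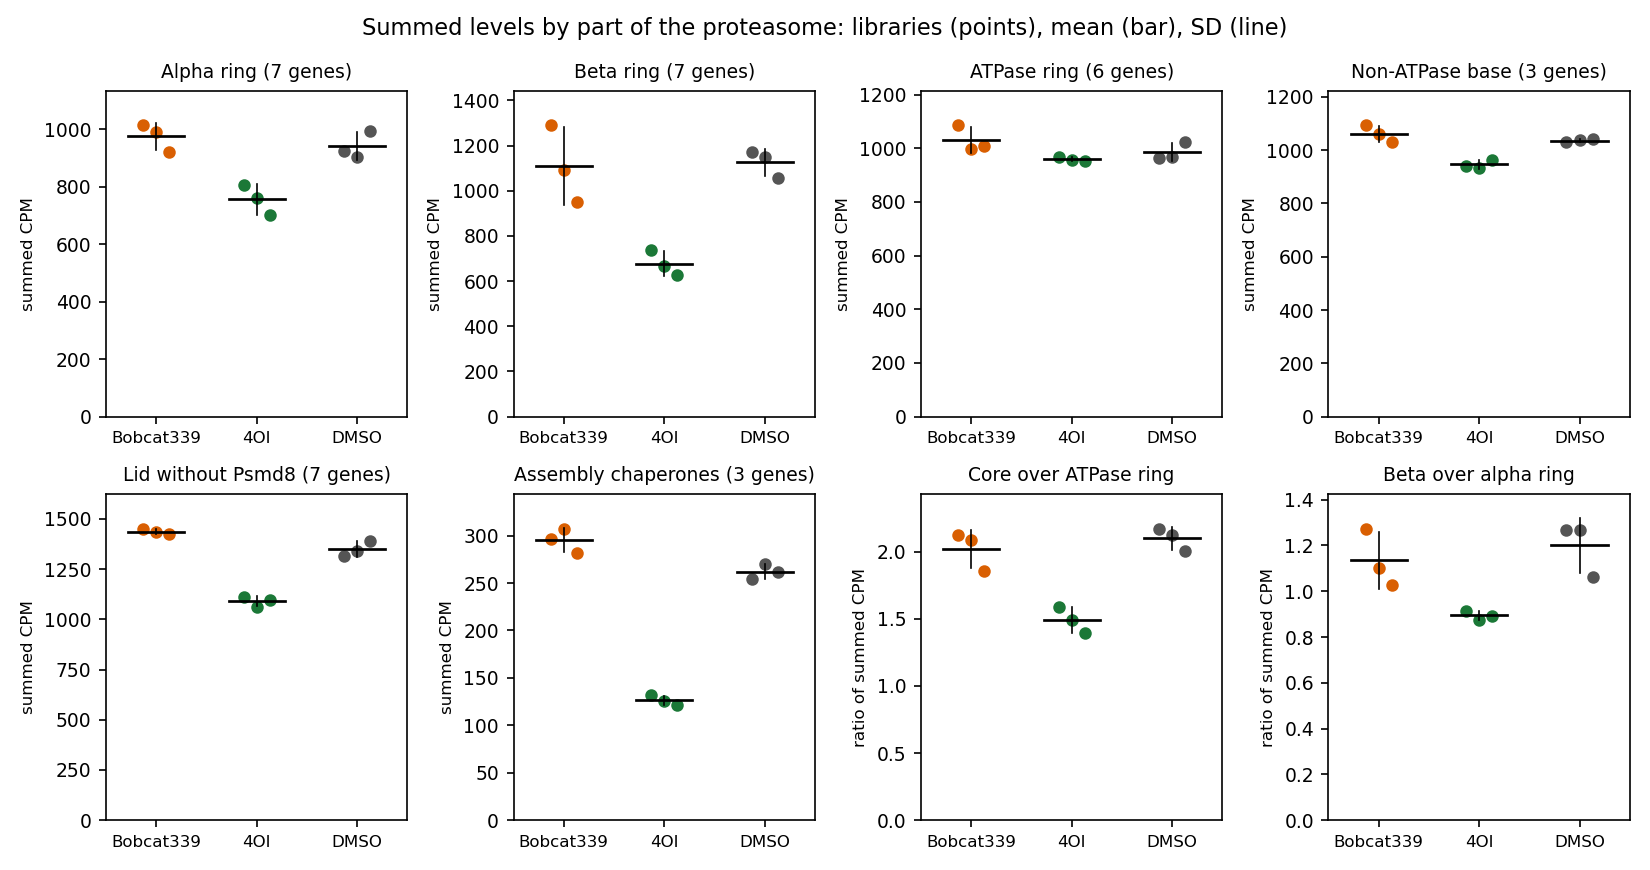
Summed CPM of the genes in each part of the proteasome (y axes, from 0) and 2 ratios of such sums, with each library as a point, the mean as a bar and the SD as a line, for Bobcat339, 4OI and DMSO (x axes, n = 3 each). The beta ring stands lower with 4OI, as does the sum of the assembly chaperones, which follows Psmd5 alone (66.0 CPM with 4OI and 200.2 CPM with DMSO), the ATPase ring overlaps between 4OI and DMSO, and core over ATPase ring is 1.39 to 1.59 with 4OI and 2.01 to 2.17 with DMSO.

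In the rest of the base, the scaffold genes Psmd1 and Psmd2 had changes of -0.08 (adjusted p = 0.542) and -0.06 (adjusted p = 0.43) with 4OI. Psmd4, the ubiquitin receptor, had 244, 209.6 and 193 CPM in Bobcat339 libraries and 169, 167 and 173 CPM in 4OI libraries, against 230.2, 234 and 201 CPM in DMSO libraries. It fell to 76.6% of its DMSO level (log2 fold change -0.39, SE 0.0969, adjusted p = 0.00508), with every 4OI library under the lowest DMSO library.

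The lid held the largest fall of all members. Psmd8, a lid subunit that in yeast joins last and completes the lid, had 1056, 969 and 869.8 CPM in Bobcat339 libraries and 168, 155 and 161 CPM in 4OI libraries, against 929.9, 931 and 797 CPM in DMSO libraries. The 4OI libraries were close to each other and at 18.2% of the DMSO level (log2 fold change -2.46, SE 0.0965, adjusted p = 3.35e-09), and over the 17 alternatives the log2 fold change stayed between -2.56 and -2.37. Psmd13, a structural lid subunit, had 199, 192 and 166 CPM in Bobcat339 libraries and 119, 108 and 110.4 CPM in 4OI libraries, against 189.6, 207 and 175 CPM in DMSO libraries (log2 fold change -0.76, SE 0.0929, adjusted p = 3.33e-05). The 4OI libraries lay below the 6 others. An exon of the opposite-strand gene Sirt3 shares 329 bases with an exon of Psmd13. Sirt3 averaged 389.7 counts with Bobcat339, 390.0 with 4OI and 452 with DMSO. Psmd14, the deubiquitinase, had 162, 160.1 and 173 CPM in Bobcat339 libraries and 103, 107 and 108 CPM in 4OI libraries, against 147, 145 and 187 CPM in DMSO libraries, and fell to 66.3% (log2 fold change -0.59, SE 0.0996, adjusted p = 3.55e-04). Psmd3 also fell (-0.30, adjusted p = 0.015), a call lost with library size scaling (adjusted p = 0.0602) and without 4OI replicate 2 (0.0581), DMSO replicate 1 (0.0517) or DMSO replicate 2 (0.0594). The estimates for Psmd6, Psmd7, Psmd11 and Psmd12 lay between -0.29 and -0.11 and did not pass. Without Psmd8, the summed lid level was 1437 ± 11.9 CPM with Bobcat339, 1091 ± 26.1 CPM with 4OI and 1349 ± 38.8 CPM with DMSO (SD, n = 3 each). The 4 lid calls became 8 with DESeq2, 7 with RLE scaling and 3 with library size scaling.

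Among the chaperones that assemble the ATPase ring, 1 fell and the others did not pass the test. Psmd5 had 216, 233 and 214 CPM in Bobcat339 libraries and 68.4, 64.5 and 65.0 CPM in 4OI libraries, against 193, 209 and 198 CPM in DMSO libraries. It fell to 32.9% of its DMSO level (log2 fold change -1.60, SE 0.0709, adjusted p = 8.24e-09), and over the 17 alternatives the log2 fold change stayed between -1.70 and -1.51. Psmd9 was at 0.04 (95% interval -0.22 to 0.31, adjusted p = 0.767). An exon of an antisense gene, Gm26745, shares 1849 bases with an exon of Psmd9. Gm26745 is absent from the deposited genes, so its reads cannot be told apart from those of Psmd9. Psmd10, known as gankyrin and studied in liver cancer, had 36.7, 34.8 and 35.2 CPM in Bobcat339 libraries and 33.1, 28.8 and 29.0 CPM in 4OI libraries, against 30.5, 30.3 and 36.7 CPM in DMSO libraries, and its groups overlapped (-0.10, adjusted p = 0.409).

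**Figure D3:**
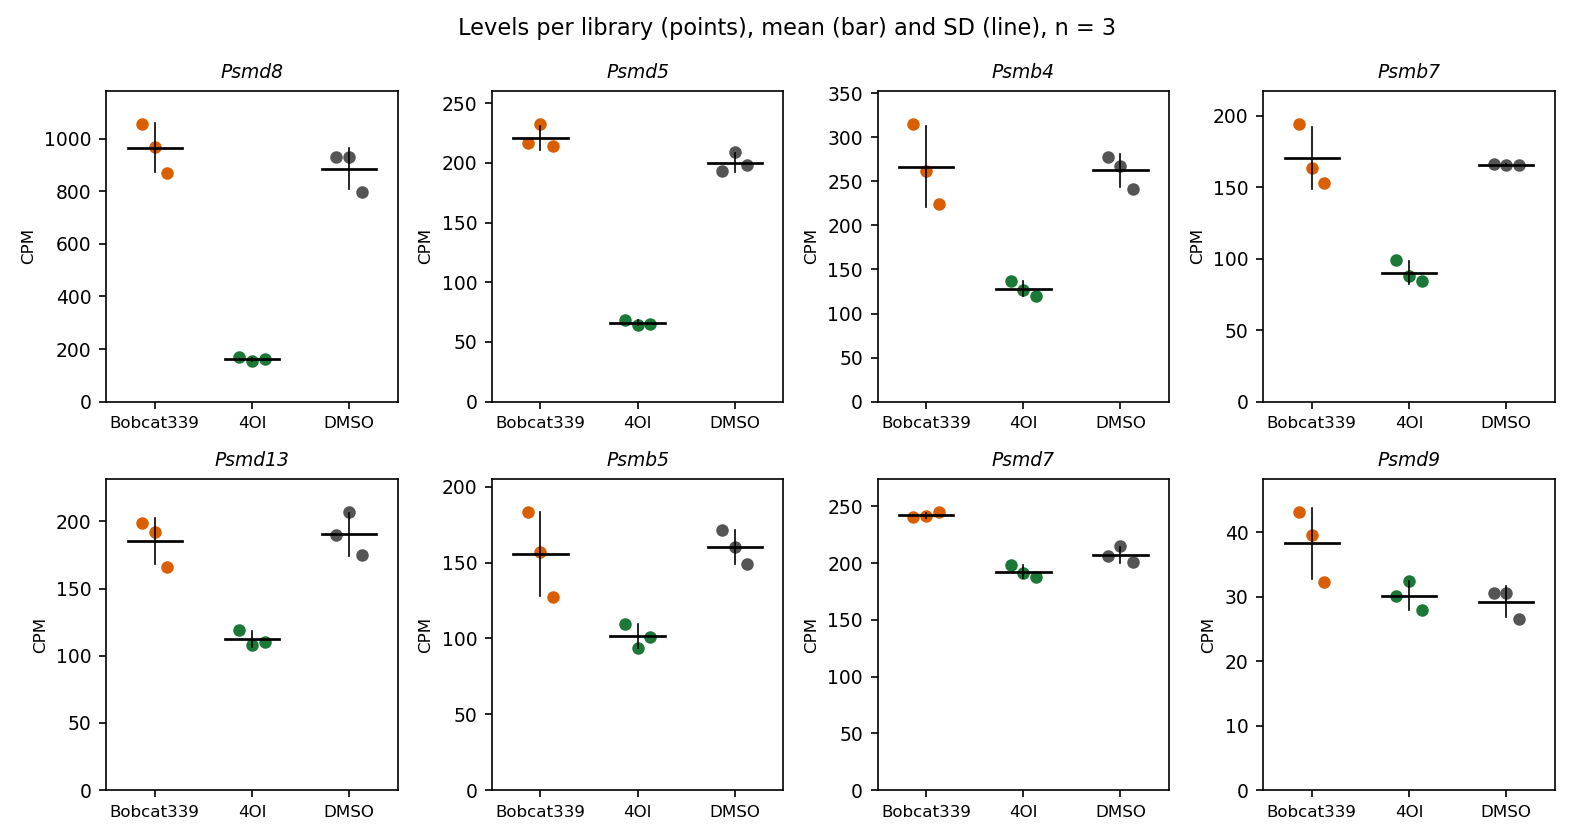
CPM (y axes, from 0) of 8 members in each library (points), with the mean as a bar and the SD as a line, for Bobcat339, 4OI and DMSO (x axes, n = 3 each). In Psmd8, Psmd5, Psmb4, Psmb7, Psmd13 and Psmb5 the 4OI points lie below every other point, and in Psmd7 the Bobcat339 points (241 to 245 CPM) lie above every other point.

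Set against Bobcat339 in place of DMSO, 4OI gave 24 members lower and 0 higher, where 31.3% of all genes were lower and 30.9% higher. This included 7 of 7 beta ring and 8 of 8 lid genes, 5 of 7 alpha ring genes, 1 of 6 ATPases, 1 of 3 base genes and 2 of 3 chaperones. Of these 24 calls, 16 held in all 17 alternatives. Among the beta ring and lid genes, the call of Psmd12 was lost in 1 alternative, of Psmb3 in 4, of Psmd6 in 7 and of Psmd3 in 9. With library size scaling, 6 of 7 beta ring and 5 of 8 lid genes were called lower. The median change was -0.35 (all genes -0.00, or 0.12 with library size scaling, where the members' median was -0.22). Psmd8 (-2.58) and Psmd5 (-1.75) led here too. Psmd7 (log2 fold change -0.33, SE 0.0633, adjusted p = 8.94e-04), Psmd11 (-0.34, adjusted p = 0.00144) and Psmd12 (-0.37, adjusted p = 0.0071) were lower with 4OI than with Bobcat339, although 4OI against DMSO did not pass for them. These libraries are the same as in the comparisons above.

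Under interferon, Psmb8, Psmb9 and Psmb10 replace Psmb5, Psmb6 and Psmb7 in newly built cores and form the immunoproteasome. All 3 were scarce in these cultures. Per 100 counts of Psmb5 there were 6.24, 5.84 and 7.24 counts of Psmb8 in Bobcat339 libraries and 16.6, 20.1 and 15.3 in 4OI libraries, against 8.65, 8.47 and 8.96 in DMSO libraries. Each treated group lay apart from DMSO, Bobcat339 below it and 4OI above it (two-sided exact permutation test, p = 0.1 in both cases and 0.15 after adjustment over 6 such comparisons, where 3 libraries against 3 cannot give less than 0.1). Per 100 counts of Psmb6 there were 1.49, 1.63 and 1.11 of Psmb9 in Bobcat339 libraries (exact permutation p = 0.1, adjusted 0.15) and 2.75, 2.77 and 3.16 in 4OI libraries (exact permutation p = 0.6), against 2.82, 2.20 and 2.85 in DMSO libraries. Per 100 counts of Psmb7 there were 8.80, 8.34 and 8.91 of Psmb10 in Bobcat339 libraries (exact permutation p = 0.1, adjusted 0.15) and 8.96, 10.6 and 15.1 in 4OI libraries (exact permutation p = 0.4, adjusted 0.48), against 13.3, 15.2 and 12.1 in DMSO libraries. The Psmb10 ratio rests on Psmb7, whose value is uncertain because of the Nek6 overlap given above. With Bobcat339 all 3 ratios lay below those of DMSO, and with 4OI the Psmb8 ratio alone lay apart. Macrophages and endothelial cells also express these genes, and the markers of both moved with the groups as given above, a part that was not tested.

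**Figure D4:**
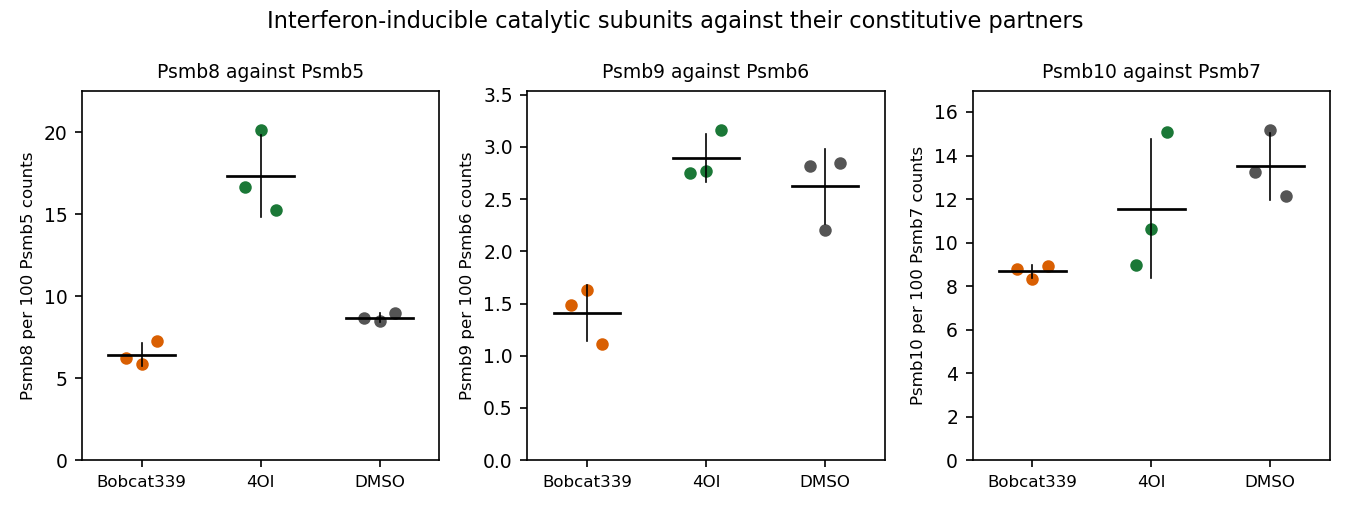
Counts of each interferon-inducible catalytic subunit per 100 counts of its constitutive partner (y axes, from 0) in each library (points), with the mean as a bar and the SD as a line, for Bobcat339, 4OI and DMSO (x axes, n = 3 each). Psmb8 against Psmb5 is 15.3 to 20.1 with 4OI, 5.84 to 7.24 with Bobcat339 and 8.47 to 8.96 with DMSO, and for the other pairs Bobcat339 lies below DMSO.

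Of the 5 immunoproteasome and interferon-inducible activator genes, 4 were lower and 0 higher with Bobcat339, with Psmb8 at -0.49 (adjusted p = 0.0242), Psmb9 at -0.82 (0.0461), Psmb10 at -0.60 (0.0254) and the activator subunit Psme1 at -0.43 (0.0174). Among all genes 9.06% were lower and 11.6% higher with Bobcat339, and 30.4% lower and 33.3% higher with 4OI. The median of the 5 was -0.49 with Bobcat339 and -0.82 with 4OI. The Bobcat339 calls were thin, since all 4 were lost without Bobcat339 replicate 2, Bobcat339 replicate 3, DMSO replicate 1 or DMSO replicate 2 (adjusted p between 0.0565 and 0.158). Psmb9 was also lost without filter, in the fit of 6 libraries, and without any 4OI replicate or DMSO replicate 3 (0.0538 to 0.0919). With 4OI, 3 of the 5 were lower, namely Psmb10 (log2 fold change -1.12, SE 0.165, adjusted p = 1.36e-04), Psme1 (-0.82, adjusted p = 5.68e-05) and Psme2 (-1.18, adjusted p = 7.03e-05), of which Psme2 has a near-identical copy, Psme2b, with which reads may be shared. Psmb8 was called higher with 4OI (0.33, adjusted p = 0.0474), a call that 11 of the 17 alternatives lost (adjusted p from 0.0158 to 0.204 over all 17). It was lost with DESeq2, RLE scaling, no filter or the fit of 6 libraries, and without Bobcat339 replicate 2, Bobcat339 replicate 3, 4OI replicate 1, 4OI replicate 2 or any DMSO replicate. Psmb9 was at -0.29 (adjusted p = 0.347).

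The genes that help to build the core were mostly lower with 4OI. Of 8 chaperones and partners of the proteasome, 0 were lower and 1 was higher with Bobcat339, and 7 were lower and 1 higher with 4OI. Their median log2 fold change was 0.01 with Bobcat339 and -0.78 with 4OI, against -0.01 and 0.08 for all genes, of which 9.06% were lower and 11.6% higher with Bobcat339 and 30.4% lower and 33.3% higher with 4OI. The maturation factor Pomp had 94.5, 88.3 and 83.7 CPM in Bobcat339 libraries and 60.0, 46.9 and 47.5 CPM in 4OI libraries, against 83.9, 76.3 and 99.6 CPM in DMSO libraries, with 4OI below the 6 others (log2 fold change -0.75, SE 0.123, adjusted p = 3.00e-04). Psmg2, which with Psmg1 assembles alpha rings, was at 27.9, 27.5 and 22.5 CPM in Bobcat339 libraries and 9.03, 13.4 and 15.5 CPM in 4OI libraries, against 25.3, 25.8 and 25.3 CPM in DMSO libraries (log2 fold change -1.01, SE 0.176, adjusted p = 4.84e-04). Txnl1, a thioredoxin bound to the proteasome and not a chaperone, fell by 0.51 (adjusted p = 1.49e-04). Akirin2, which carries proteasomes into the nucleus, was the 1 that rose, by 0.80 with Bobcat339 (adjusted p = 2.91e-05) and by 0.66 with 4OI (adjusted p = 7.91e-06). Its level was 60.0 ± 0.936 CPM with Bobcat339, 54.6 ± 0.963 CPM with 4OI and 34.5 ± 0.74 CPM with DMSO (SD, n = 3 each).

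Among 14 transcriptional regulators of proteasome genes and factors that process them, 6 were higher and 1 lower with Bobcat339, and 9 were higher and 3 lower with 4OI, at medians of 0.28 with Bobcat339 and 0.40 with 4OI. Among all genes 11.6% were higher and 9.06% lower with Bobcat339, and 33.3% higher and 30.4% lower with 4OI, so that the 3 of 14 lower with 4OI are under the share of all genes. Nfe2l1, the gene of NRF1, had 326, 325 and 331 CPM in Bobcat339 libraries and 379, 365 and 395 CPM in 4OI libraries, against 231, 234 and 229 CPM in DMSO libraries. It rose with both treatments (log2 fold change 0.50, SE 0.062, adjusted p = 3.38e-04 for Bobcat339, log2 fold change 0.72, SE 0.0621, adjusted p = 2.01e-06 for 4OI). Nfe2l2, the gene of NRF2, had 170.2, 171 and 187 CPM in Bobcat339 libraries and 345, 339 and 358 CPM in 4OI libraries, against 158, 162 and 178 CPM in DMSO libraries. It rose with 4OI (log2 fold change 1.06, SE 0.0746, adjusted p = 3.40e-07) and did not pass with Bobcat339 (0.08, adjusted p = 0.494). The small Maf genes, whose products pair with NRF1 and NRF2, went different ways. Maff was at 1.67 with Bobcat339 and -1.09 with 4OI, Mafg at 0.40 and 1.72, and Mafk at 1.07 and 0.82, each with the Bobcat339 value first and each past the test. Bach1, a repressor at the same elements, rose by 0.96 with Bobcat339 (adjusted p = 8.23e-04) and by 2.52 with 4OI (adjusted p = 6.47e-08). Syvn1, a ubiquitin ligase for NRF1, rose by 0.58 with Bobcat339 (adjusted p = 8.13e-04) and fell by 0.66 with 4OI (adjusted p = 4.37e-05). Of the 5 members with an antioxidant response element core in the windows shown above, Psmb5 and Psmb6 fell with 4OI, Psmc6 (0.37), Psmd12 (-0.14) and Psmd9 (0.04) did not pass, and with Bobcat339 Psmd9 was called higher.

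**Figure D5:**
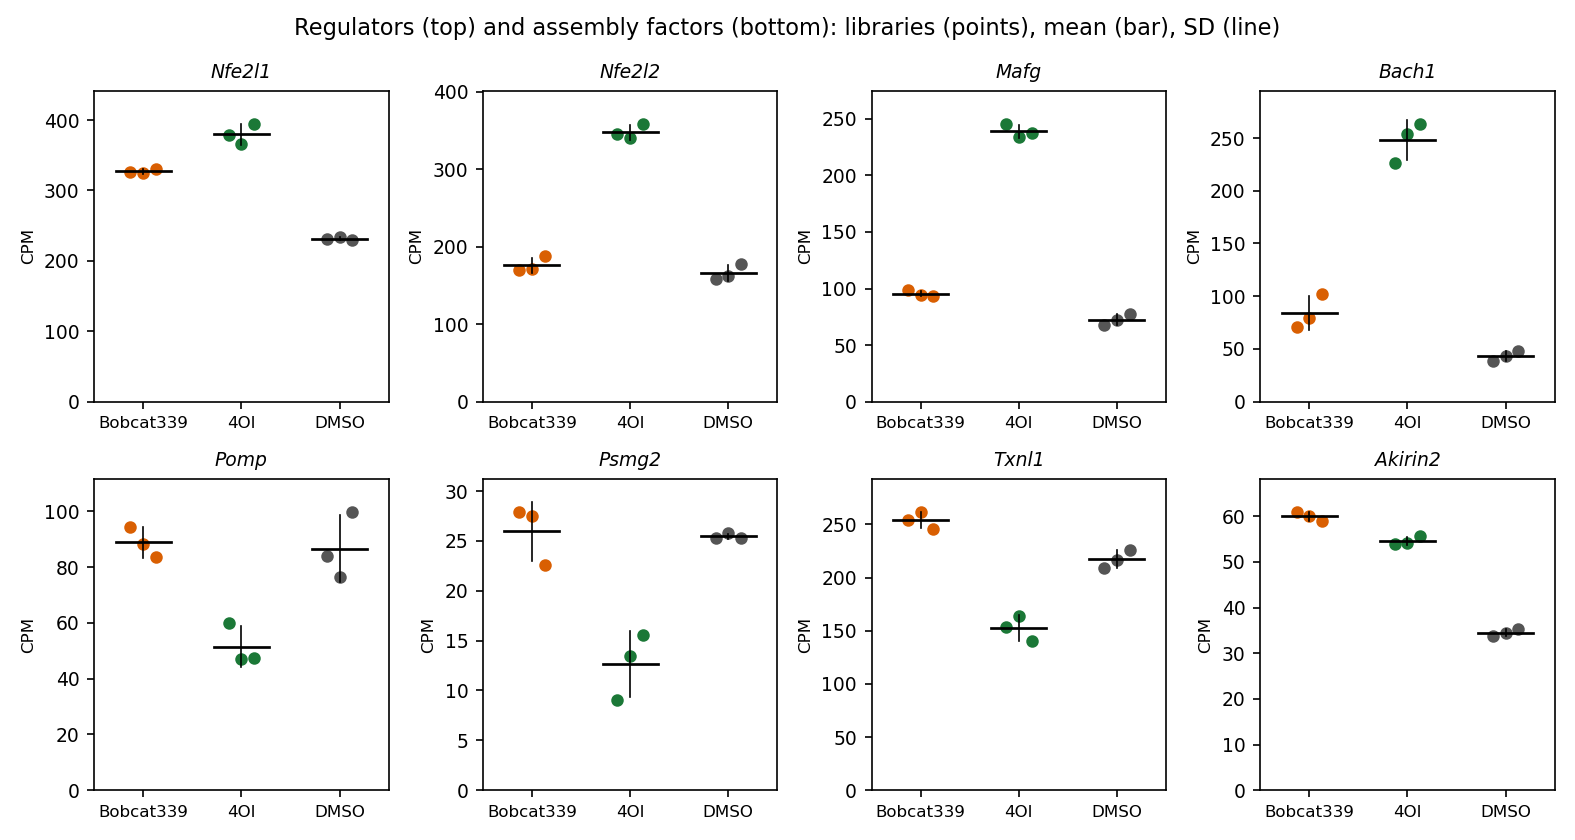
CPM (y axes, from 0) of 4 regulators (upper row) and 4 assembly or partner genes (lower row) in each library (points), with the mean as a bar and the SD as a line, for Bobcat339, 4OI and DMSO (x axes, n = 3 each). Nfe2l1, Mafg, Bach1 and Akirin2 lie above DMSO in both treated groups, Nfe2l2 is at 339 to 358 CPM with 4OI and 158 to 178 CPM with DMSO, and Pomp, Psmg2 and Txnl1 lie lowest with 4OI.

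Of 13 subunits outside the symbol rule, deubiquitinases and ubiquitin shuttles, 3 were higher and 0 lower with Bobcat339, and 3 were higher and 4 lower with 4OI, at medians of 0.18 with Bobcat339 and 0.01 with 4OI. With 4OI these counts are close to or under the shares of all genes (33.3% higher, 30.4% lower), and with Bobcat339 11.6% of all genes were higher and 9.06% lower. The ubiquitin receptor Adrm1 was at 0.10 with Bobcat339 (adjusted p = 0.542) and 0.05 with 4OI (0.681), and the small lid subunit Sem1 at -0.17 (0.546) and 0.14 (0.488). Zfand5, which binds the proteasome and speeds it, rose by 0.56 with Bobcat339 (adjusted p = 0.00125) and by 1.35 with 4OI (1.71e-07). The shuttle Ubqln1 was higher with Bobcat339 (0.41, adjusted p = 0.00199), while with 4OI the shuttle Ubqln2 was higher (0.72, 9.54e-05) and the shuttle Rad23b (-0.65, 6.63e-06) and the ligase Ube3c (-0.59, 1.34e-04) were lower. Zfand2a was higher with 4OI (0.35, adjusted p = 0.00147), a call kept in all 17 alternatives. It was also higher with Bobcat339 (0.28, adjusted p = 0.0211), a call lost with RLE scaling (0.0831), in the fit of 6 libraries (0.0604), and without Bobcat339 replicate 2 (0.0971) or DMSO replicate 2 (0.0645). Of the other activators, inhibitor and tissue-specific subunits, 5 of 6 could be tested, with 0 called for Bobcat339, and with 4OI the activator Psme3 fell (-0.30, adjusted p = 0.00255) and the germ cell subunit Psma8 rose at a low level, with 0.477, 0.688 and 0.72 CPM in Bobcat339 libraries and 5.38, 4.97 and 2.81 CPM in 4OI libraries, against 0.49, 0.686 and 0.749 CPM in DMSO libraries (log2 fold change 2.77, SE 0.343, adjusted p = 3.58e-05). Among ubiquitin genes and activating enzymes, Ubb rose by 0.42 with Bobcat339 (adjusted p = 0.00831). With 4OI the activating enzyme Uba6 was higher (0.55, adjusted p = 0.0168) and the ribosomal fusion gene Rps27a was lower (-0.69, 4.98e-05). The call of Uba6 was lost without filter (adjusted p = 0.0652) and without 4OI replicate 2 (0.0702), DMSO replicate 1 (0.0568) or DMSO replicate 2 (0.0708).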

How the data were processed

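RNA sequencing of primary mouse hepatocytes was deposited by the authors as 1 table of estimated counts per gene, in whole numbers, for 9 libraries. The submitters' processing notes list featureCounts 1.5.0-p3, HISAT2 2.0.5 and CASAVA 1.8. Build, annotation, counting settings and use of strand: not given in the sources used here. Multiples of 4 made up 43.7% to 45.6% of values from 4 to 40 (27.0% if spread evenly). From this excess, about 4 deposited counts were taken to stand for 1 read pair, a factor that was assumed and not estimated. Counts divided by 4 and rounded were tried as an alternative. Gene symbols were matched by Ensembl ID (52073 of 56691), lengths and overlapping genes came from GENCODE M21 (GRCm38), and promoters from RefSeq (GRCm38.p6).

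Genes that passed filterByExpr by group (18379) were fitted in 1 model over all 9 libraries with edgeR 4.0.16 (quasi-likelihood test, TMM scaling, R 4.3.3), with Benjamini-Hochberg adjustment within each comparison over all genes tested and calls at an adjusted p under 0.05. The biological coefficient of variation was 0.240. CPM were computed by edgeR with TMM-scaled library sizes. All 34 members passed the filter. DESeq2 1.42.0, 2 other scalings, 2 other filters, the 6 libraries compared only, a replicate block and each library left out in turn gave, with the division by 4, 17 alternatives. Ratios of subunits were compared with an exact permutation test (SciPy 1.17.1). Figures were drawn with matplotlib 3.10.9.

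The members and the 6 related and 7 marker lists were chosen with earlier results of these data known. For 1 related list, counts over the list are not reported here. Values per sample are given for the 5 called members with the largest change in each direction against DMSO, the 3 catalytic subunits, the assembly factors, Psmd4 and Psmd14. Psmc6 was added after its values were seen. The other members are given by counts, ranges and single estimates, with group means for Psma6.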

Additional observations from a re-analysis of the deposited data

How the results depend on the processing

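The median change of the members with 4OI against DMSO stayed below 0 in all 17 alternatives. Single members did not all keep their sign, as with Psmc2 (-0.10 to 0.09) and Psmc3 (-0.11 to 0.07), and Psmc6 stayed above 0 (0.25 to 0.61). DESeq2 called 24 members lower against DMSO, RLE scaling 22, library size scaling 16 and no filter 22. The count was 23 with the 6 libraries compared only and 16 to 22 with 1 library left out (18 as reported). Of all genes called with 4OI against DMSO, 52.3% were higher as reported, 49.5% with DESeq2, 49.3% with RLE scaling and 55.8% with library size scaling. All genes called lower were 5195 to 5862 with 1 library left out (5590 as reported). For the other settings the counts of all genes are not given here. The members' median was -0.36 with DESeq2 or RLE scaling (all genes 0.01) and -0.21 with library size scaling (all genes 0.17). It was -0.39 with no filter and -0.38 with the 6 libraries only. The number of members higher with 4OI was 1 with library size scaling and 0 to 1 with 1 library left out, Psmc6 in each case. Against Bobcat339 the median was -0.22 with library size scaling, -0.45 with no filter and -0.43 to -0.33 with 1 library left out, and 16 to 28 members were called lower over all alternatives. With Bobcat339 against DMSO, the 2 higher members became 1 with DESeq2 or no filter, 0 with RLE scaling, library size scaling or the 6 libraries only, and 0 to 5 with 1 library left out. The members' median there was -0.026 with DESeq2 or RLE scaling (all genes -0.078). All genes lower with Bobcat339 were 2616 with DESeq2 and 1046 to 1860 with 1 library left out (1666 as reported), and those higher 1380 to 2370 (2136 as reported). The cause of these shifts was not tested.

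Whether replicate numbers mark paired cultures is not labelled, and the main fit did not pair them. Deviations from group means correlated between -0.0726 and 0.316 for same-numbered libraries of different groups. For differently numbered libraries the range was -0.244 to 0.137. The highest values were those of Bobcat339 and DMSO replicates 3 (0.316) and replicates 1 (0.15). Between Bobcat339 and 4OI the same-numbered values were 0.128, -0.035 and 0.123 for replicates 1, 2 and 3. Between 4OI and DMSO they were -0.0015, -0.0726 and -0.0252. Pairing is therefore not excluded, also for 4OI against Bobcat339. With the replicate block, 21 members were lower and 1 higher with 4OI against DMSO, 2 were higher with Bobcat339, and 24 were lower with 4OI against Bobcat339.

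Depth did not limit these genes, whose lowest count was 1766. The 3 libraries per group, labels that do not name separate cultures, and the unknown dose and time limit what the comparisons can show. So do the changes in liver cell markers with 4OI and, for some markers, with Bobcat339.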
